A study of Homo sapiens with 12 samples.

Results

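The genes described here are 10 genes of the integrated stress response: ATF4, DDIT3, ATF3, EIF2AK3, PPP1R15A, ASNS, CHAC1, TRIB3, SESN2 and DDIT4. They were chosen by name with earlier results of these data known, so their direction is not independent evidence. The row of each was looked up among the 60675 Ensembl identifiers of the count tables through its GENCODE symbol, and all 10 of 10 were found. RNA was sequenced from 2 human diffuse large B cell lymphoma (DLBCL) cell lines, SUDHL6 and SUDHL16, each as the parental line and as a venetoclax-resistant line derived from it, with 3 libraries per group and 12 in all. Venetoclax (ABT-199) is an inhibitor of the anti-apoptotic protein BCL2. Each resistant line had been selected by long exposure to rising venetoclax until it grew at 10 times the IC50 of its parent or more. Each resistant line is a single selected population kept in the drug, so selection, drug exposure and time in culture cannot be told apart. Parental and resistant cells were put in fresh medium for experiments, and whether venetoclax was present when RNA was taken is not stated. The SUDHL6 libraries were made with an NEBNext Ultra II kit and those of SUDHL16 with Illumina's Stranded Total RNA Prep and RiboZero Plus, on different instruments, so kit and instrument cannot be told apart from the line. The labels do not say that the 3 libraries of a group came from separate cultures, and p-values therefore measure the spread between libraries, which may be technical.

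The integrated stress response slows protein synthesis when cells are short of amino acids, when proteins misfold in the endoplasmic reticulum, when heme is low or when viral RNA or mitochondrial damage is sensed. Sensor kinases, of which EIF2AK3 (PERK) answers to the endoplasmic reticulum, phosphorylate the initiation factor eIF2. General translation then falls while the messenger RNA of the transcription factor ATF4 is translated more, so ATF4 activity can change with little change in ATF4 RNA. ATF4 turns on genes for amino acid uptake and synthesis, tRNA charging and redox balance, and with its target DDIT3 (CHOP) it can turn on genes of cell death. Cells of the B lineage also use the neighbouring arms of the unfolded protein response as they become antibody-secreting cells.

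ATF4 and its partners of the C/EBP family bind a composite DNA element whose core is TGATGNAA. This core and its reverse complement TTNCATCA were searched on both strands in the RefSeq promoter windows of GRCh38.p14, which run from 250 bases before to 50 bases after each annotated start. All 10 genes had at least 1 window, 16 windows in total, and 3 of these (18.8%) held the core, against 1266 of 34943 windows (3.62%) over all genes. The 3 windows that held the core are shown with the matching letters in capitals, 5′ to 3′ on the strand of the gene.
ASNS, chr7:97872359-97872658, minus strand: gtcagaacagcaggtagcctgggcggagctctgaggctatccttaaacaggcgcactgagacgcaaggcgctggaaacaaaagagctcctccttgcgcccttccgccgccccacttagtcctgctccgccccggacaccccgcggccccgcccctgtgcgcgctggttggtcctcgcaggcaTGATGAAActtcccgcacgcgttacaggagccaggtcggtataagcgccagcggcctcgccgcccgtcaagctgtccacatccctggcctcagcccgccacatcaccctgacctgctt
CHAC1, chr15:40953221-40953520, plus strand: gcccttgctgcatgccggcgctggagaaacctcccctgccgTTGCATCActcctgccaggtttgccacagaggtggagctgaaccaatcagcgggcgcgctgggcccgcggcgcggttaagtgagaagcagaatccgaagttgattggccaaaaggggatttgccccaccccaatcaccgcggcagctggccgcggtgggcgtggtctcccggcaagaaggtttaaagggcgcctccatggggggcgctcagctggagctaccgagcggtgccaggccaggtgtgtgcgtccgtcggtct
ATF3, chr1:212565157-212565456, plus strand: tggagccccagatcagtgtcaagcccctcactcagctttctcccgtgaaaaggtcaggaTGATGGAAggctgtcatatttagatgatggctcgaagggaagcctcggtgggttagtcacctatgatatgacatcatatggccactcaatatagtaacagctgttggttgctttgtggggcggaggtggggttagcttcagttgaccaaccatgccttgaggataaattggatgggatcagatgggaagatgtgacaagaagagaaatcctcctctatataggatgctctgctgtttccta
The match in the ASNS window, TGATGAAA, starts 68 bases before the start site. In CHAC1 the core lies on the other strand and reads TTGCATCA, 209 bases before the start, and in ATF3 it reads TGATGGAA, 191 bases before the start. No match was found in the windows of the other 7 genes, TRIB3 and SESN2 among them, which says only that these letters are not in these windows. Over the 93 other genes of the response listed further on, 74 had a window, and 16 of their 103 windows (15.5%) held the core. The core was found for 16 of the 93 genes, and for 3 of the 14 among them that were called higher in SUDHL16 by the rule below. A match is a description of the letters and not of binding.

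Depth and spread differed between the lines. Total counts ranged from 33992784 to 40885665 per SUDHL6 library and from 4131927 to 22068221 per SUDHL16 library, and the biological coefficient of variation estimated by edgeR was 0.0516 in SUDHL6 and 0.468 in SUDHL16. CE-26, a SUDHL16 parental library, had the lowest total and a protein-coding share of 55.4% of its counts, where the remaining libraries of the line had 84.3% to 90.2%. Of its counts 31.9% fell on identifiers not matched to GENCODE, where the remaining libraries of the line had 1.61% to 5.06%. It also had the most identifiers with a count, 34938, where those libraries had 20896 to 24655. Without it the coefficient of variation in SUDHL16 was 0.339, and the change of each of the 10 genes and the calls of each gene list in SUDHL16 are given with and without this library. All 8 B-cell markers examined had counts in both lines. Their summed level was 4237 to 4315 CPM in SUDHL6 parental and 4443 to 4471 CPM in SUDHL6 resistant libraries. In SUDHL16 it was 2834 to 4324 CPM in parental and 4406 to 4472 CPM in resistant libraries. Within the SUDHL6 sum MME was called lower by the rule below (mean 108 to 53.5 CPM), while MS4A1 rose from 1849 to 2139 CPM, under 1.5-fold. Of markers of other cell types, 3 fibroblast genes summed to 19.7 to 35.5 CPM in SUDHL16 parental libraries. In SUDHL16 resistant libraries they summed to 0 to 0.425 CPM, and DCN made up most of these sums. The 2 plasma cell genes summed to 0 to 3.10 CPM in the parental and 9.38 to 12.7 CPM in the resistant libraries of that line. PRDM1 rose from a mean of 0.230 to 10.9 CPM. SDC1 was at 0 to 2.41 CPM in the parental libraries, with at most 7 counts in a library, and at 0 in all 3 resistant libraries, and was not tested. In the same line 4 T-cell genes summed to 1.16 to 11.02 CPM in the parental and 10.97 to 13.4 CPM in the resistant libraries. Most of the resistant sum was CD3E, which rose from a mean of 2.31 to 12.4 CPM. By the rule below it was called higher (edgeR, 6.01-fold, adjusted p = 0.0455), while CD3D and CD2 were at 0 in the resistant libraries. The 3 myeloid genes summed to 0 to 6.20 CPM in the parental and 0 to 0.536 CPM in the resistant libraries. In SUDHL6 the fibroblast sum was at most 2.21 CPM, the plasma cell sum 2.10 to 3.12 CPM and each of the other 2 sums at most 0.385 CPM. The part of these cells or RNAs in the results below was not tested, and in bulk RNA fewer cells of a type and less RNA per cell cannot be told apart.

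The resistant cells were then set against the parental cells of the same line. Levels are read counts on the CPM scale after TMM scaling, and changes are log2 fold changes of resistant against parental from edgeR's quasi-likelihood test, each with its standard error (SE). Calls needed a change of 1.5-fold or more and an adjusted p below 0.05 (Benjamini-Hochberg, over all genes tested). In SUDHL16, 4 of the 10 genes rose by this rule (TRIB3, CHAC1, SESN2 and ASNS) and 0 fell, where 3.2% of the 15708 genes tested were called higher and 2.1% lower. In SUDHL6, 1 of the 10 fell (EIF2AK3) and 0 rose, where 4.65% of 16662 genes tested were called lower and 4.31% higher. The median log2 fold change of the 10 genes was 1.44 in SUDHL16, with -0.02 over all genes tested, and -0.18 in SUDHL6, with -4.34e-05 over all genes. Without CE-26, 6 of the 10 genes were called higher in SUDHL16, where 6.73% of 16280 genes were called higher and 3.32% lower, and the median of the 10 was 1.596. The other fits with 1 SUDHL16 library left out called 5 of the 10 without CE-25, 3 without CE-27, 3 without CE-28, 2 without CE-29 and 2 without CE-30, TRIB3 and SESN2 each time among them, and 0.973% to 1.45% of all genes were called higher in these 5 fits.

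**Figure D1:**
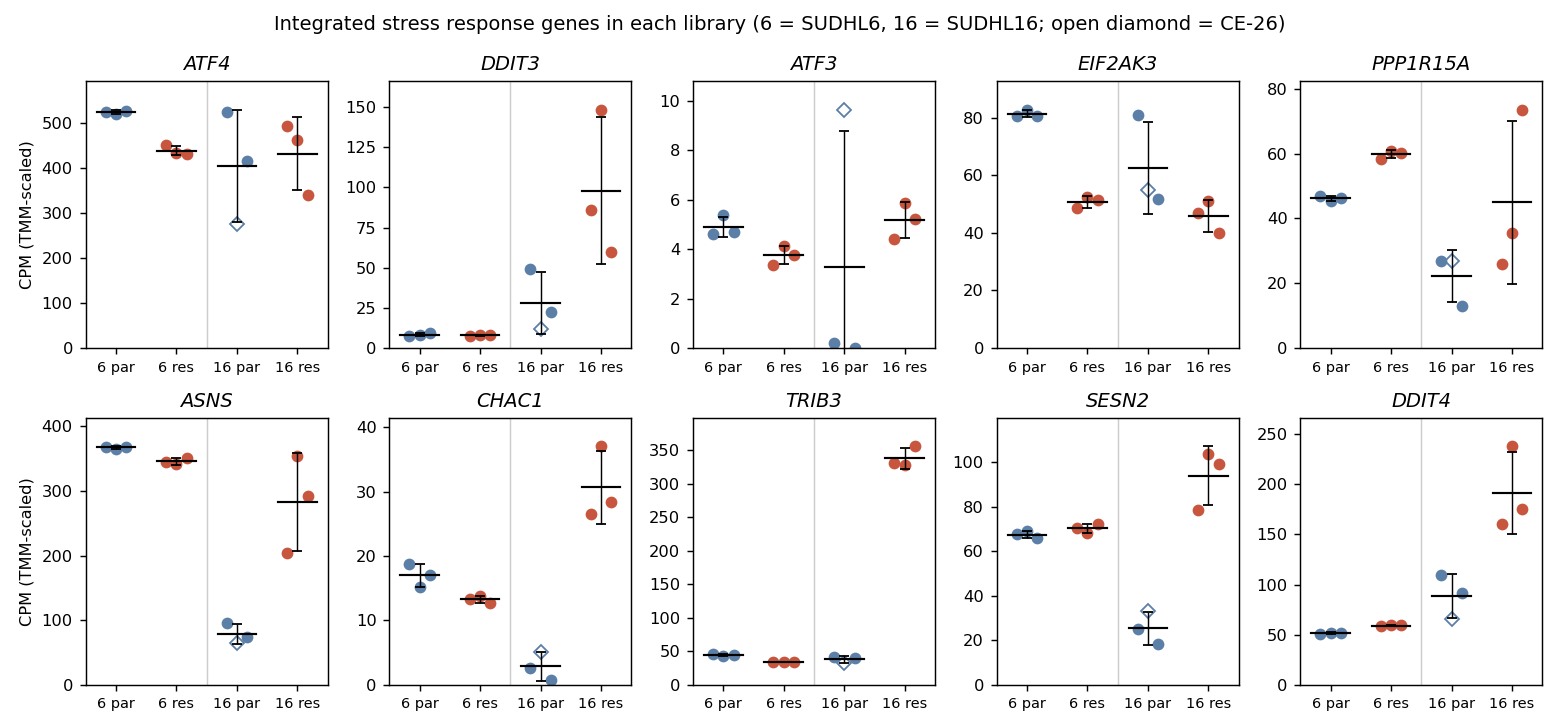
CPM of each of the 10 genes (vertical axes, linear from 0, in TMM-scaled CPM) in the 3 libraries of each group (points), with the group mean and SD as bars; 6 and 16 stand for SUDHL6 and SUDHL16, par and res for parental and resistant, and the open diamond is CE-26. The resistant SUDHL16 libraries stand above all 3 parental ones for TRIB3, CHAC1, SESN2, ASNS, DDIT4 and DDIT3, while ATF4 overlaps in that line and is lower in resistant SUDHL6.

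Of the transcription factors, ATF4 itself was abundant in every group and changed little. ATF4 is ENSG00000128272, at chr22:39519695-39522683 on the plus strand. Its level was 525, 520.1 and 529 CPM in SUDHL6 parental libraries and 451, 435 and 432 CPM in SUDHL6 resistant libraries. All 3 resistant libraries were thus below all 3 parental ones, by a log2 fold change of -0.25 (SE 0.02, adjusted p = 5.37e-07), which is 1.19-fold and under the 1.5-fold limit. In SUDHL16 it stood at 525, 277 and 417 CPM in the parental libraries CE-25, CE-26 and CE-27 and at 495, 463 and 339.9 CPM in the resistant libraries CE-28, CE-29 and CE-30. The groups overlapped, and the log2 fold change was 0.09 with a 95% interval of -0.65 to 0.83 (adjusted p = 0.918), so neither sign could be resolved within that interval. Without CE-26 the sign turned, with a log2 fold change of -0.11 (adjusted p = 0.846), and without CE-28 the value was -0.000537. GENCODE lists 4 named pseudogenes of ATF4, the highest of which had 111 counts in 1 library, and reads shared with them could not be traced.

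DDIT3, which encodes the death-associated factor CHOP, was low in SUDHL6 and higher in SUDHL16. It lies at chr12:57516588-57521737 on the minus strand (ENSG00000175197). In SUDHL6 it had 7.78, 7.997 and 9.59 CPM in parental and 7.46, 8.02 and 8.20 CPM in resistant libraries, and the groups overlapped (log2 fold change -0.10, adjusted p = 0.468). Its SUDHL16 levels were 49.2, 11.7 and 22.5 CPM in the parental and 85.7, 148 and 59.7 CPM in the resistant libraries. Every resistant library was above every parental one, by 1.79 on the log2 scale (SE 0.52, 3.45-fold, unadjusted p = 0.00855), but the adjusted p of 0.0995 did not pass the threshold. With CE-25 left out, the parental library with the most DDIT3, the change was 2.49 and passed (adjusted p = 0.0428), and without CE-26 it was 1.46 (adjusted p = 0.0822). DDIT3 shares 518 exon bases with other genes, MARS1 on the opposite strand among them, and the strand setting of the counting is not given. MARS1, a tRNA synthetase gene, went from 220.3 ± 70.6 to 348 ± 43.2 CPM in SUDHL16 (SD, n = 3 per group), by 0.66 on the log2 scale (adjusted p = 0.295) and by 0.46 without CE-26 (adjusted p = 0.284).

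ATF3, a stress-induced factor of the same family, was among the lowest of the 10 genes. It is ENSG00000162772, at chr1:212565334-212620777 on the plus strand. In SUDHL6 the parental libraries had 4.61, 5.37 and 4.69 CPM and the resistant ones 3.38, 4.11 and 3.77 CPM, without overlap (log2 fold change -0.38, SE 0.12, adjusted p = 0.0293, under 1.5-fold). In SUDHL16 the result depended on a single library. The counts were 4, 28 and 0 in CE-25, CE-26 and CE-27, or 0.220, 9.64 and 0 CPM, and 66, 125 and 123 in the resistant libraries, or 4.42, 5.88 and 5.23 CPM. With CE-26, whose ATF3 level was above every resistant library, the log2 fold change was 0.84 with a 95% interval of -2.61 to 4.30 (adjusted p = 0.828). Without it ATF3 was called higher, with 0.117 ± 0.165 CPM (SD, n = 2) before and 5.53 ± 0.701 CPM (SD, n = 3) after selection (log2 fold change 5.43, SE 0.89, adjusted p = 0.00677).

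The upstream kinase EIF2AK3 was the only 1 of the 10 genes to be called in SUDHL6. EIF2AK3 (ENSG00000172071, chr2:88556741-88691518, minus strand) phosphorylates eIF2 when proteins misfold in the endoplasmic reticulum. Its level was 80.6, 82.7 and 80.6 CPM in parental and 48.5, 52.4 and 51.3 CPM in resistant SUDHL6 libraries. The resistant libraries were all lower, by 1.603-fold (log2 fold change -0.68, SE 0.03, 95% interval -0.75 to -0.61, adjusted p = 9.59e-09). The call held with each library left out in turn, at -0.71 to -0.65, and was lost in the single fit of all 12 libraries at the same change (-0.68, adjusted p = 0.231). In SUDHL16 it had 81.0, 54.8 and 51.8 CPM in parental and 46.8, 51.0 and 39.9 CPM in resistant libraries, again with all resistant libraries lower. That change was -0.45 (SE 0.25, adjusted p = 0.383) and was not called, with or without CE-26 (-0.52 without it, adjusted p = 0.256). EIF2AK3 shares 781 exon bases with 2 noncoding RNA genes on the opposite strand, and reads shared with them could not be traced.

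PPP1R15A (GADD34), which brings a phosphatase to eIF2 and so ends the response, was higher in resistant SUDHL6 by less than 1.5-fold. The gene lies at chr19:48872212-48876059 on the plus strand (ENSG00000087074). Its SUDHL6 libraries had 46.9, 45.4 and 46.3 CPM when parental and 58.4, 60.8 and 60.0 CPM when resistant, a 1.29-fold difference (log2 fold change 0.37, SE 0.03, adjusted p = 1.21e-06). In SUDHL16 the parental libraries had 26.8, 26.9 and 12.9 CPM and the resistant ones 25.99, 35.6 and 73.5 CPM. These groups overlapped, and 1 resistant library, CE-30, was well above the other two (log2 fold change 1.03, SE 0.44, adjusted p = 0.254). Without CE-26 the change was 1.19 (adjusted p = 0.179). In SUDHL6 the kinase was thus lower and the phosphatase subunit higher in the same 3 resistant libraries.

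Both metabolic enzymes among the 10 rose in SUDHL16. ASNS, asparagine synthetase (ENSG00000070669, chr7:97851677-97872542, minus strand), makes asparagine from aspartate and glutamine, and its window above holds the core TGATGAAA. It had 96.1, 64.7 and 74.8 CPM in SUDHL16 parental and 203, 354 and 292 CPM in SUDHL16 resistant libraries. The lowest resistant library was above the highest parental one, and ASNS was called higher (3.60-fold, log2 fold change 1.85, SE 0.30, adjusted p = 0.0116). The call was lost without any 1 of 3 libraries. The adjusted p was 0.0628 without CE-27, 0.0714 without CE-29 and 0.0634 without CE-30, with log2 fold changes of 1.82, 1.65 and 1.83, and without CE-26 the change was 1.74 (adjusted p = 0.00697). SUDHL6 started higher, at 369, 366 and 368 CPM in parental libraries, and stood at 345, 341 and 352 CPM in resistant ones. That decrease of -0.09 on the log2 scale passed the test (adjusted p = 0.00252) and was far under the fold limit. ASNS shares 2415 exon bases, summed over a noncoding RNA gene on the same strand and a pseudogene on the opposite one. Only that pseudogene is among the identifiers counted. GENCODE also lists 4 named pseudogenes of ASNS, with at most 6 counts in a library.

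CHAC1, which breaks down glutathione, showed the largest fold change of the called genes among the 10. It is ENSG00000128965, at chr15:40952962-40956512 on the plus strand, and TTGCATCA stands in its window. In SUDHL16 its counts were 47, 15 and 13 in parental libraries, or 2.59, 5.17 and 0.807 CPM, and 395, 787 and 669 in resistant libraries, or 26.5, 37.0 and 28.5 CPM. Each resistant library was above all parental libraries, and CHAC1 was called higher (12.2-fold, log2 fold change 3.61, SE 0.60, 95% interval 2.25 to 4.97, adjusted p = 0.0119). Without CE-26 the change was 17.9-fold (adjusted p = 0.00144). The adjusted p rose to 0.0520 without CE-28, 0.0742 without CE-29 and 0.0571 without CE-30, at log2 fold changes of 3.71, 3.41 and 3.66. In SUDHL6 the direction was the other one, with 18.8, 15.3 and 17.03 CPM in parental and 13.3, 13.8 and 12.7 CPM in resistant libraries (log2 fold change -0.36, SE 0.08, adjusted p = 0.00372, under 1.5-fold).

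TRIB3, a pseudokinase that restrains AKT and ATF4 itself, rose with little spread between libraries. TRIB3 (ENSG00000101255) lies at chr20:362835-397559 on the plus strand. Its level was 42.0, 32.4 and 40.0 CPM in SUDHL16 parental libraries and 331, 328 and 356 CPM in SUDHL16 resistant libraries, which is 38.1 ± 5.08 against 338 ± 15.4 CPM (SD, n = 3 per group). The gap between the groups was far wider than the spread within either, and TRIB3 was called higher (8.84-fold, log2 fold change 3.14, SE 0.26, adjusted p = 5.55e-04). It was also called with each library left out in turn, with adjusted p from 1.70e-04 (without CE-26, log2 fold change 3.05) to 0.00749. In SUDHL6 TRIB3 was lower in every resistant library, with 46.4, 42.8 and 44.3 CPM before and 34.2, 33.8 and 34.1 CPM after selection (log2 fold change -0.39, SE 0.04, adjusted p = 1.25e-05, under 1.5-fold).

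SESN2, sestrin 2, a leucine-sensing inhibitor of the growth kinase mTORC1, rose in SUDHL16 as well. The gene is ENSG00000130766, at chr1:28259518-28282491 on the plus strand. Parental SUDHL16 libraries had 25.1, 33.1 and 18.2 CPM and resistant ones 78.6, 103 and 99.3 CPM, without overlap (3.72-fold, log2 fold change 1.90, SE 0.28, adjusted p = 0.00670). The call held with each library left out, with adjusted p from 0.00142 (without CE-26, log2 fold change 2.12) to 0.0438. In SUDHL6 the libraries overlapped, with 67.6, 68.9 and 65.8 CPM before and 70.4, 68.1 and 72.1 CPM after selection (log2 fold change 0.06, adjusted p = 0.170).

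DDIT4 (REDD1), another inhibitor of mTORC1 signalling, was higher in every resistant SUDHL16 library without passing the threshold. It lies at chr10:72273919-72276036 on the plus strand (ENSG00000168209). Its SUDHL16 levels were 109, 65.4 and 91.7 CPM in parental and 160.4, 238 and 175 CPM in resistant libraries (2.14-fold, log2 fold change 1.101, SE 0.29, adjusted p = 0.0674). Without CE-26 it was called (1.91-fold, log2 fold change 0.93, adjusted p = 0.0478). In SUDHL6 it went from 50.2, 51.7 and 52.1 CPM to 58.5, 59.2 and 59.7 CPM, a small difference without overlap (log2 fold change 0.20, SE 0.03, adjusted p = 1.60e-04).

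**Figure D2:**
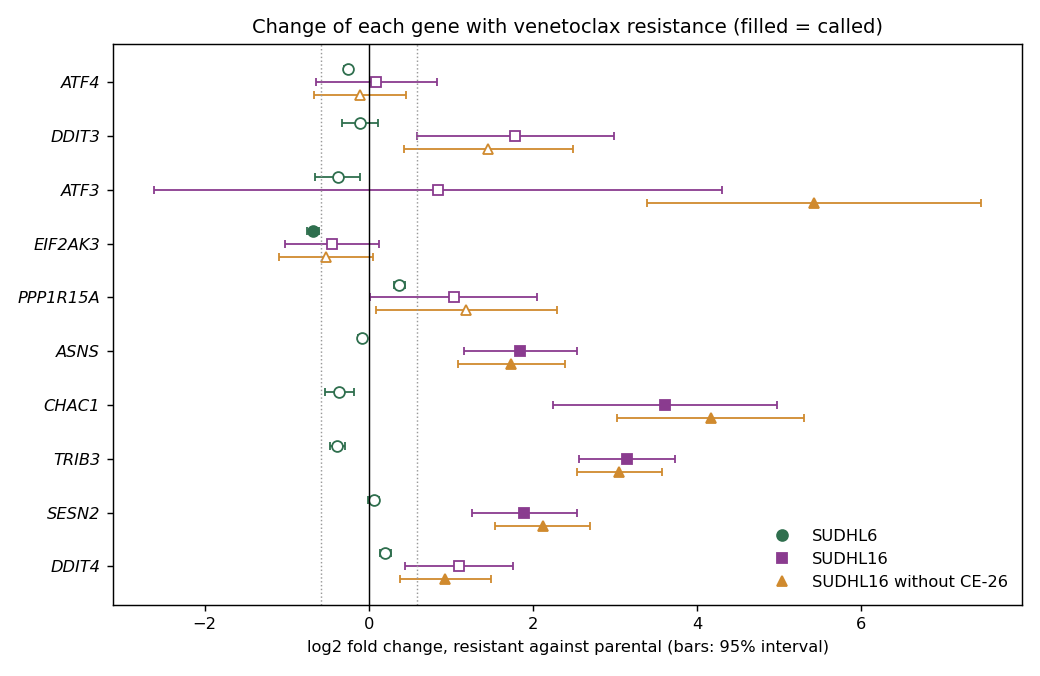
Log2 fold change of resistant against parental (horizontal axis) for each of the 10 genes (vertical axis) in SUDHL6, in SUDHL16 and in SUDHL16 without CE-26, with bars for the 95% interval, filled symbols for called genes and dotted lines at a 1.5-fold change. In SUDHL6 only EIF2AK3 is filled, at -0.68, while in SUDHL16 ASNS, CHAC1, TRIB3 and SESN2 are filled, at 1.85 to 3.61.

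Over the 10 genes, the resistant SUDHL16 libraries did not rank alike. CE-29 was the highest of the 3 for 7 genes, CE-30 for PPP1R15A and TRIB3, and CE-28 for ATF4, and CE-28 was the lowest for 6 genes. The coefficient of variation between libraries of a group was 0.459% to 11.6% over the 10 genes in SUDHL6 parental and 0.542% to 9.73% in SUDHL6 resistant cells. In SUDHL16 it was 13.3% to 167% in parental and 4.56% to 55.8% in resistant cells. A small change such as that of ATF4 in SUDHL6 therefore passed the test, while a 3.45-fold difference of DDIT3 in SUDHL16 did not. Groups without overlap were seen for 8 of the 10 genes in SUDHL6, 2 higher and 6 lower, where 23.1% of all genes were higher and 24.8% lower without overlap. In SUDHL16 there were 7 such genes, 6 higher and 1 lower, where the shares of all genes were 14.6% and 11.9%.

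Whether the change differed between the lines was tested as the interaction in a fit of all 12 libraries. This fit estimates 1 spread per gene for both lines, although SUDHL16 libraries varied more (coefficient of variation 0.468 against 0.0516 in SUDHL6). For TRIB3, CHAC1 and SESN2 the SE of the difference was below that of the SUDHL16 change alone (0.26, 0.60 and 0.28). The SEs and p-values of the difference may therefore be too small. Of the 10 genes, 4 passed at an adjusted p under 0.05, where 7.16% of 19621 genes did. Each of the 4 changed more upward in SUDHL16: TRIB3 by 3.55 on the log2 scale (SE 0.22, adjusted p = 4.15e-06), CHAC1 by 4.09 (SE 0.55, adjusted p = 9.13e-04), ASNS by 1.96 (SE 0.32, adjusted p = 0.00323) and SESN2 by 1.90 (SE 0.25, adjusted p = 8.17e-04). For DDIT3 the difference was 1.87 (adjusted p = 0.110) and for DDIT4 0.91 (adjusted p = 0.112). The values for ATF3 (1.55, adjusted p = 0.654), PPP1R15A (0.72, adjusted p = 0.451), EIF2AK3 (0.25, adjusted p = 0.665) and ATF4 (0.36, adjusted p = 0.620) did not pass either. A difference that misses the threshold does not show that the lines changed alike. Without CE-26 the difference for ATF3 was 5.78 and passed (adjusted p = 1.58e-04).

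Levels of different genes were compared per kilobase of the canonical transcript, as CPM per kilobase. ATF4 was the highest of the 10 in all 4 groups, at 369.6 in SUDHL6 parental, 309.8 in SUDHL6 resistant, 286 in SUDHL16 parental and 305 in SUDHL16 resistant cells. ASNS followed in SUDHL6, at 154 and 145, and DDIT4 came next, at 29.4 and 33.9. In SUDHL6 parental cells PPP1R15A, SESN2, TRIB3 and EIF2AK3 then lay between 17.9 and 19.7, each overlapping the next in its library range, followed by CHAC1 at 11.2 and DDIT3 at 9.36, which also overlapped, and ATF3 at 2.52. In SUDHL6 resistant cells PPP1R15A, SESN2, TRIB3 and EIF2AK3 stood apart from each other, at 25.4, 20.3, 14.5 and 11.2, and DDIT3 (8.74) and CHAC1 (8.73) overlapped.

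In SUDHL16 parental cells the middle of the order could not be resolved. DDIT4 at 50.9, ASNS at 32.9, DDIT3 at 30.8, TRIB3 at 16.2, EIF2AK3 at 13.8, PPP1R15A at 9.45 and SESN2 at 7.36 each overlapped the next, and CHAC1 at 1.88 and ATF3 at 1.69 came last. In SUDHL16 resistant cells TRIB3 at 144, ASNS at 119, DDIT4 at 109.5 and DDIT3 at 108 formed an overlapping group under ATF4, above SESN2 at 27.1, CHAC1 at 20.2, PPP1R15A at 19.2 and EIF2AK3 at 10.1. Against the 15422 SUDHL16 genes ranked by mean level per kilobase, TRIB3 went from percentile 69.6 in parental to percentile 97.8 in resistant cells, CHAC1 from 22.6 to 74.1 and SESN2 from 48.3 to 81.4. ATF4 stood at percentiles 98.7 and 98.9.

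**Figure D3:**
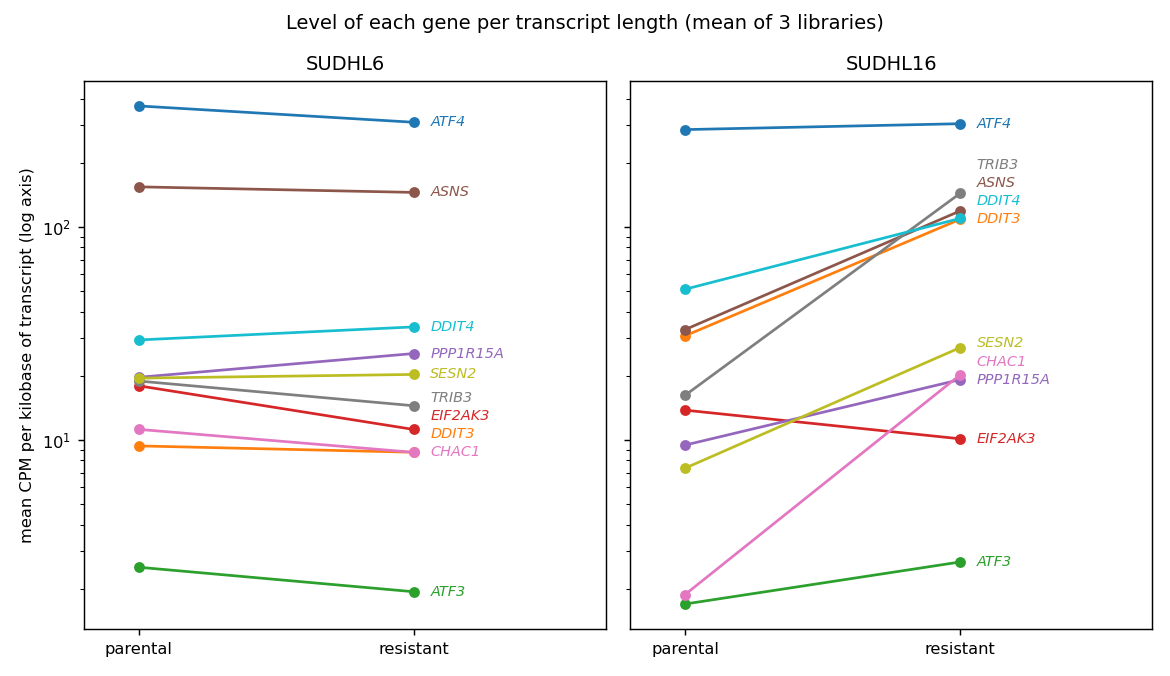
Mean level of each gene in CPM per kilobase of transcript (vertical log axis) in parental and resistant cells of each line, joined by a line per gene. In SUDHL16 the line of TRIB3 runs from 16.2 to 144 and that of CHAC1 from 1.88 to 20.2, while ATF4 stays between 286 and 305.

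To see whether the other genes of the response moved with these 10, 93 genes in 8 lists were examined, none of them among the 10. In SUDHL16, 14 of the 86 tested were called higher and 0 lower (median log2 fold change 0.45), and in SUDHL6 4 of the 89 tested were called higher and 6 lower (median -0.10). These counts stand beside the same shares of all genes as above, 3.2% higher and 2.1% lower in SUDHL16 and 4.31% higher and 4.65% lower in SUDHL6. Without CE-26, 23 of 86 were called higher and 0 lower in SUDHL16, where 6.73% of all genes were called higher and 3.32% lower. The number of listed genes called was 8 without CE-25, 7 without CE-27, 5 without CE-28, 5 without CE-29 and 4 without CE-30. It thus depends on single libraries. In the fits with fewer calls the share of all genes called higher fell as well, to between 0.973% and 1.45%. Each listed gene named below for a rise in SUDHL16 was also called without CE-26. The lists were written with earlier results of these data known, and so their direction is not independent evidence.

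The partner transcription factors, which pair with ATF4 on DNA or share its targets, had 2 of 4 tested genes called higher in SUDHL16 (median 1.40; without CE-26 also 2, median 1.32) and none called in SUDHL6 (median -0.18). CEBPB, a C/EBP factor, went from 17.5 ± 3.60 CPM in SUDHL16 parental to 103.6 ± 12.9 CPM in SUDHL16 resistant cells (SD, n = 3 per group; 5.90-fold, log2 fold change 2.56, adjusted p = 0.00113) and was called with each library left out. ATF5, a close relative of ATF4 with a role in mitochondrial stress, rose from 266 ± 66.6 to 909.5 ± 235 CPM (log2 fold change 1.77, adjusted p = 0.0219), although 5 of the 6 fits without 1 library did not call it, with adjusted p up to 0.110.

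Genes of amino acid transport and synthesis gave the most calls, 6 of 18 tested in SUDHL16 with a median of 1.006. All 18 had a higher level in resistant cells in the fit of all SUDHL16 libraries, 13 of them without overlap, where 14.6% of all genes were higher without overlap. Without CE-26, 10 were called, 16 of 18 were higher and the median was 0.96. SLC6A9, a glycine transporter, had 0 counts in all 3 parental libraries and 478 to 851 in the resistant ones, or 29.01 to 40.0 CPM, which is at least 417-fold higher than a floor of 3 counts over the parental group (adjusted p = 5.55e-04). PCK2, a mitochondrial enzyme that feeds carbon from the citric acid cycle into glycerol and serine, rose from 23.9 ± 5.55 to 116 ± 3.03 CPM (log2 fold change 2.26, adjusted p = 0.00200). GPT2, which makes alanine in mitochondria, rose from 3.63 ± 4.07 to 71.8 ± 8.85 CPM (log2 fold change 4.70, 26.1-fold, adjusted p = 0.0104). The size of that change depended on the parental library left out, at 5.77 without CE-26 (54.4-fold, from 1.38 CPM) and 4.06 without CE-27. Of these 3 genes, SLC6A9 and PCK2 were called with each library left out and GPT2 in 4 of 6 such fits, with adjusted p up to 0.0629.

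In SUDHL6 the same list had 1 gene called higher and 1 lower of 20 tested (median -0.12). SLC7A11, the cystine transporter, rose from 19.9 ± 0.118 to 30.6 ± 0.336 CPM (1.54-fold, adjusted p = 8.09e-07). SLC38A2, a transporter of neutral amino acids, fell from 137 ± 4.09 to 86.9 ± 0.707 CPM (log2 fold change -0.66, adjusted p = 2.44e-09). In SUDHL16 SLC38A2 moved the other way, from 76.7 ± 21.7 to 216.7 ± 63.4 CPM (log2 fold change 1.49, adjusted p = 0.0335, and 1.35 without CE-26), and the difference between the lines was 2.17 (adjusted p = 0.00313).

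The list of tRNA synthetases, which load amino acids onto tRNAs, and of the tRNA exporter XPOT had opposite signs in the lines with few calls. Of its 13 genes, 2 were called higher in SUDHL16 (median 0.75; without CE-26, 4 with a median of 0.66) and 0 in SUDHL6 (median -0.12). All 13 had a positive value in the fit of all SUDHL16 libraries with TMM scaling. In that line 12 of 13 were positive under upper-quartile scaling, with protein-coding genes only and without CE-29. All 13 had a negative value in SUDHL6 under each scaling tried, where the changes were small (-0.56 to -0.03). WARS1, the tryptophan enzyme, rose in SUDHL16 from 76.5 ± 14.2 to 443 ± 163 CPM (5.79-fold, adjusted p = 0.00499, and 5.90-fold without CE-26). CARS1, the cysteine enzyme, rose from 47.5 ± 9.16 to 123 ± 31.9 CPM (2.58-fold, adjusted p = 0.0261), a call that 5 of the 6 fits without 1 library did not make, with adjusted p up to 0.106. The change of WARS1 differed between the lines by 3.14 (adjusted p = 2.46e-04).

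Among the eIF2 kinases, the phosphatase subunit PPP1R15B, the subunits of eIF2 itself and those of its exchange factor eIF2B, 0 of 12 were called in SUDHL16 (median 0.18), where 4 had an unadjusted p under 0.05 (19.1% of all genes did). Without CE-26 the median was -0.00378 and 1 gene was called, EIF2S2, a subunit of eIF2, at 1.77 (adjusted p = 0.0309), against 1.51 (adjusted p = 0.0752) with that library. In SUDHL6 1 of 12 was called (median 0.01). That gene was EIF2AK2 (PKR), a kinase that senses double-stranded RNA and is itself induced by interferon, which went from 6.22 ± 0.724 to 16.8 ± 0.536 CPM in SUDHL6 (2.70-fold, adjusted p = 7.51e-08). In SUDHL6 the kinase of the endoplasmic reticulum was thus lower and the kinase for double-stranded RNA higher in resistant cells.

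The secreted, growth and death outputs of the response had 1 of 10 tested genes called higher in SUDHL16 (median 0.37; without CE-26, 3 with a median of 0.45) and 2 of 11 called lower in SUDHL6 (median -0.17). EIF4EBP1, an inhibitor of cap-dependent translation, rose in SUDHL16 from 21.3 ± 9.02 to 77.1 ± 8.75 CPM (3.70-fold, adjusted p = 0.0126) and was called in 2 of the 6 fits without 1 library, with adjusted p up to 0.0634. The 2 genes that fell in SUDHL6 both encode pro-apoptotic BH3-only proteins. BCL2L11 (BIM) fell from 65.3 ± 0.694 to 41.4 ± 1.48 CPM (log2 fold change -0.66, adjusted p = 1.34e-08). BBC3 (PUMA) fell from 7.63 ± 0.432 to 4.32 ± 0.243 CPM (log2 fold change -0.82, adjusted p = 3.73e-05).

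Of the other arms of the unfolded protein response, 2 of 14 genes were called lower in SUDHL6 (median -0.14) and 2 of 14 higher in SUDHL16 (median 0.10; without CE-26 also 2, median 0.04). XBP1, the factor of the IRE1 arm and of plasma cell differentiation, was called in both lines with opposite signs. It fell in SUDHL6 from 39.7 ± 1.55 to 20.4 ± 2.65 CPM (log2 fold change -0.96, adjusted p = 8.37e-07) and rose in SUDHL16 from 16.4 ± 8.04 to 90.8 ± 14.0 CPM (log2 fold change 2.47, adjusted p = 0.0102), a difference of 3.45 between the lines (adjusted p = 6.29e-04). Of the 2 plasma cell markers, PRDM1 moved the same way as XBP1 in SUDHL16, as given above. SDC1 had at most 7 counts in a SUDHL16 library and was not tested, so no direction is read from it. The call of XBP1 in SUDHL16 was lost without CE-28 (adjusted p = 0.0522) and without CE-30 (adjusted p = 0.0612). HERPUD1, of protein disposal at the endoplasmic reticulum, rose in SUDHL16 from 42.2 ± 9.72 to 109.6 ± 23.01 CPM (adjusted p = 0.0240, up to 0.120 with 1 library left out). DNAJC3, an inhibitor of EIF2AK3, fell in SUDHL6 from 84.0 ± 1.76 to 50.5 ± 0.593 CPM (log2 fold change -0.73, adjusted p = 1.35e-09).

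The list of the mitochondrial stress relay, in which OMA1 and DELE1 pass mitochondrial damage on to eIF2 kinases, and of mitochondrial chaperones and proteases had 1 of 9 genes called higher in each line (medians 0.33 in SUDHL16, 0.17 without CE-26, and -0.06 in SUDHL6). The genes were different ones, both coding for mitochondrial proteases. LONP1 rose in SUDHL16 from 87.8 ± 2.47 to 184 ± 28.1 CPM (2.10-fold, adjusted p = 0.0342, up to 0.144 with 1 library left out), and AFG3L2 rose in SUDHL6 from 64.7 ± 3.22 to 101.5 ± 1.95 CPM (1.57-fold, adjusted p = 2.14e-08). Relatives of the 10 genes, their paralogs, had no call among 6 tested in SUDHL16, with or without CE-26, where 0 had an unadjusted p under 0.05 in the fit of all libraries. In SUDHL6 TRIB1, a relative of TRIB3, fell from 10.7 ± 0.386 to 1.46 ± 0.197 CPM (7.28-fold lower, adjusted p = 2.37e-09), and SESN3, a relative of SESN2, rose from 1.39 ± 0.391 to 3.02 ± 0.158 CPM (2.18-fold, adjusted p = 5.44e-04).

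**Figure D4:**
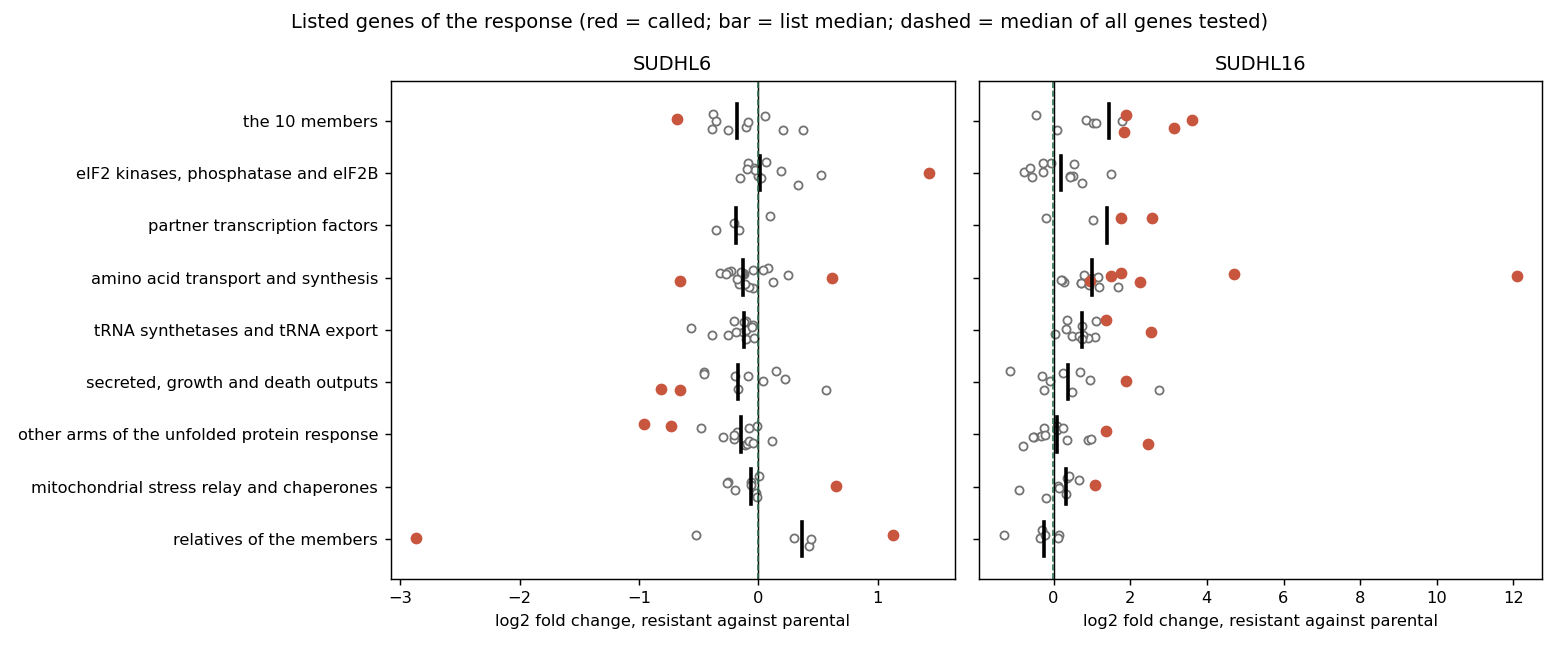
Log2 fold change of resistant against parental (horizontal axes, of different range) for each tested gene of the 10 and of the 8 lists (rows), in SUDHL6 and SUDHL16, with called genes in red, the median of each list as a bar and the median of all genes as a dashed line. The amino acid list and the tRNA list lie to the right of 0 in SUDHL16, with medians of 1.006 and 0.75, and close to 0 in SUDHL6, and SLC6A9 at 12.1 has no counts in the parental group, so its place depends on the prior count.

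Of the 89 listed genes that could be tested for a difference between the lines, 28 passed, where 7.16% of all 19621 genes did. Of the 28, 26 changed more upward in SUDHL16. By list the 28 were 9 of 20 genes of amino acid transport and synthesis, 6 of 13 of the tRNA list, XPOT among them, 3 of 12 of the list of eIF2, its kinases and eIF2B, 3 of 11 secreted, growth and death outputs, 2 of 14 of the other unfolded protein response arms, 2 of 4 partner factors, 2 of 6 relatives and 1 of 9 of the mitochondrial list.

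The genes around each of the 10 were examined for a shift of the whole region. Neighbours were the tested protein-coding genes that start within 2 Mb. Around ASNS on chromosome 7, 19 of 23 neighbours were higher in resistant SUDHL16, with a median of 0.57, and around TRIB3 on chromosome 20 14 of 16 were higher, with a median of 0.74, where the median of all genes was -0.02. The change of ASNS (1.85) was larger than that of each of its neighbours, whose highest stood at 1.48, while around TRIB3 (3.14) the highest neighbour stood at 4.58, above TRIB3 itself, and the neighbours remained raised without CE-26, with medians of 0.56 and 0.72. Around CHAC1, 8 of 52 neighbours were higher and the median was -0.45, against the sign of CHAC1 itself, and around SESN2, 27 of 42 were higher and the median was 0.12. Around EIF2AK3 in SUDHL6, the 8 neighbours had a median of -0.15, and the lowest of them stood at -0.47, above the -0.68 of EIF2AK3. Copy number was not measured, and its part in these changes was not tested.

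**Figure D5:**
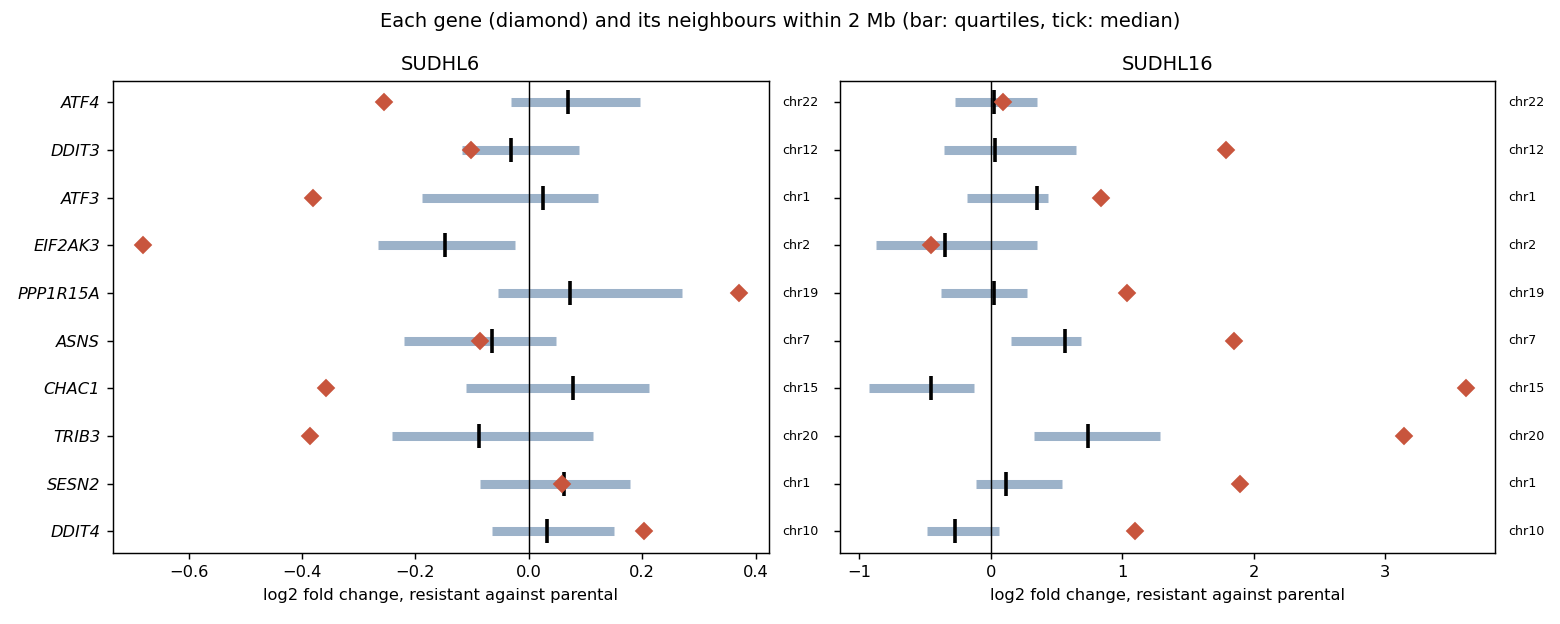
Log2 fold change of resistant against parental (horizontal axes) of each of the 10 genes (diamond) and of its neighbours within 2 Mb (bar for the quartiles, tick for the median) in each line. In SUDHL16 the neighbours of ASNS and TRIB3 lie to the right of 0, with medians of 0.57 and 0.74, and those of CHAC1 to the left, with a median of -0.45.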

How the data were processed

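Total RNA of 12 libraries was trimmed with Trim Galore, aligned to GRCh38 with HISAT2 and assembled with StringTie, and the authors deposited whole-number counts of reads per gene, not normalized. The counting tool, annotation and strand setting are not given in the sources used here, so overlapping genes and copies may share reads. Groups came from the labels, which give no replicate numbers. Of the 60675 identifiers, 56558 were matched to GENCODE 44. Totals of 4131927 to 40885665 counts set the precision, and the floor of 3 counts covers counting error only. Each line was fitted alone with edgeR 4.0.16 in R 4.3.3 (filterByExpr, TMM, two-sided quasi-likelihood test, Benjamini-Hochberg adjustment over all genes tested, prior count 0.125), and the difference between lines in 1 fit of all 12 libraries. The procedure was also run on simulated counts. In these the libraries of a line shared the same gene proportions apart from the changes put in, so a library that stands apart like CE-26 was not covered. No pair of libraries of a group was identical.

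The 10 genes and all lists were chosen with earlier results of these data known. The text names all 10 and, of each list and line, every called gene, or the 3 with the smallest adjusted p where more were called. MARS1, EIF2S2, XPOT, SLC38A2 in SUDHL16 and the marker genes were named after their values were seen. Alternatives were DESeq2 1.42.0, upper-quartile scaling, library totals, no filter on low counts, protein-coding genes only, a single fit of all libraries, and each library left out. Promoter windows and their sequences are from RefSeq. Python 3.11.15 with pandas 2.3.3 and matplotlib 3.10.9 was used for the tables and plots.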

Additional observations from a re-analysis of the deposited data

Results flagged for a closer look

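The change with resistance differed between SUDHL16 and SUDHL6 for 4 of the 10 genes by the interaction test, where 7.16% of all genes tested passed. The difference of the log2 fold changes, SUDHL16 minus SUDHL6, was 3.5492 for TRIB3, with a 95% interval of 3.06 to 4.04. It was 4.0949 for CHAC1, with an interval of 2.88 to 5.31. For ASNS it was 1.9594, with an interval of 1.25 to 2.67, and for SESN2 1.8969, with an interval of 1.35 to 2.45. These 4 passed in each alternative and with each library left out. In all of these fits the lines share 1 spread per gene, so the intervals and p-values may be too small. The lines differ in library kit, instrument and depth as well, which cannot be told apart from the line. In groups of 3 libraries a single library far from the others is not tested, and CE-26 was left out in turn like each other library.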

How the results depend on the processing

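No paired analysis was possible because the labels give no replicate numbers, and the numbers used here only name libraries. The number of genes called in SUDHL16 was 833 and became 1775 with DESeq2, 2855 in a single fit of all 12 libraries and 279 to 1636 with 1 library left out. For SUDHL16 that single fit also takes in the smaller spread of SUDHL6. Of the 10 genes, 4 were called in SUDHL16, 4 to 6 in the alternatives and 2 to 6 with 1 library left out, and of the listed genes 14 were called, 30 with DESeq2, 35 in the single fit and 4 to 23 with 1 library left out. In SUDHL6, where 1493 genes were called, the single fit, which shares the spread of SUDHL16, called 140 of all genes, 0 of the 10 genes (EIF2AK3 at an adjusted p of 0.231) and 1 in place of 10 listed genes. With 1 library left out, SUDHL6 gave 1369 to 1462 calls over all genes, 1 of the 10 and 10 to 11 listed genes. The difference between lines passed for 4 of the 10, and for 4 to 6 over all alternatives. TRIB3 and SESN2 were called in SUDHL16 in every setting tried. DDIT3 was also called with DESeq2 (adjusted p = 0.00822), without a filter (0.0343) and in the single fit (0.0238), and DDIT4 with DESeq2 (0.00401), with protein-coding genes only (0.0448) and in the single fit (0.00630). Of the named genes, the direction turned for ATF4 in SUDHL16 alone, at -0.11 without CE-26 (parental replicate 2) and -0.000537 without CE-28 (resistant replicate 1), within a range of -0.11 to 0.33 with 1 library left out. List medians near 0 turned sign as well: that of the other unfolded protein response arms in SUDHL16 was -0.08 without CE-29, and that of the eIF2 list was -0.00378 without CE-26 and -0.00516 without CE-30 in SUDHL16, and -0.00713 without CE-8 and -0.000793 without CE-12 in SUDHL6. The median of all SUDHL16 genes, -0.02 under TMM, moved by -0.09 with upper-quartile scaling and by 0.13 with library totals, and 60.4%, 54.8% and 62.1% of calls were higher under TMM, upper-quartile scaling and totals. The cause of these shifts was not tested. The spread in SUDHL16, at lower depth, limits what could be called there.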
